A study of Mus musculus with 9 samples.

Results

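The genes Tcf7l2, Prkcd, Slc17a6, Lef1, Zic1, Ramp3, Rora and Gbx2, a set of 8 commonly used as markers of thalamic neurons, were followed in bulk RNA sequencing of the mouse hippocampus. They were taken by symbol from the 47643 genes of the count matrix, and all 8 were found. The 9 libraries came from 3 MRL/mpj mice (labelled WT), 3 untreated MRL/lpr mice by their labels and 3 MRL/lpr mice that had received mesenchymal stem cells (named MRL/lpr+MSC here), all at postnatal week 6. MRL/lpr mice carry an insertion in Fas on the MRL/MpJ background and become spontaneously lupus-prone. MRL/mpj mice share that background without the insertion. The series title names PBS for the MRL/lpr mice without stem cells, and no source used here gives the dose or route of the stem cells. The comparisons asked how the disease model differed from its control, and how the treated mice differed from both.

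The thalamus lies directly beneath the hippocampus and relays signals to the cortex. Its excitatory relay neurons use the vesicular glutamate transporter VGLUT2, encoded by Slc17a6, whereas hippocampal pyramidal and granule neurons mainly use VGLUT1, encoded by Slc17a7. Tcf7l2 and Lef1 encode the DNA-binding partners of beta-catenin in Wnt signalling, and Gbx2 encodes a homeobox factor of the developing thalamus. None of the 8 genes is exclusive to the thalamus. Zic1, Prkcd and Slc17a6 are also expressed in other forebrain regions, among them the septum.

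Each library held 19475804 to 26912031 counts, and 3 counts, the most that a count of 0 allows, correspond to 0.111 to 0.154 CPM, counts scaled to the size of the library. Levels are given as CPM after TMM scaling, and p-values measure the spread between libraries, each from 1 mouse. By label every library is of strain C57BL/6, although the study's methods name MRL/MpJ and MRL/MpJ-Faslpr. In a gene table supplied with the study, the columns headed MRL/lpr matched, up to a constant factor, the counts deposited under the MRL/lpr+MSC label for 100% of shared genes. They matched those deposited as MRL/lpr for at most 3.97%. Group names below are those of the deposited labels. Fas did not separate the groups, with 1.63 to 2.0 CPM in the libraries labelled MRL/mpj, 1.33 to 2.27 in those labelled MRL/lpr and 0.985 to 1.81 in those labelled MRL/lpr+MSC. The 12 markers of hippocampal neurons summed to 1320 to 3262 CPM and were detected in every library. The libraries labelled MRL/lpr replicate 2 and MRL/lpr+MSC replicate 1 stood apart from the others of their groups in several of the 8 genes, and results are given with and without them.

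Zic1, Prkcd and Slc17a6 were the members that were high in the same libraries, so the sequence before each start site is shown. The sequences are from RefSeq (GRCm38.p6), in which all 8 genes were matched, and run 5′ to 3′ along the gene's own strand. Each covers 150 bases upstream of the start site, outside annotated exons. Zic1 lies at chr9:91365811-91365960 on the minus strand, Prkcd at chr14:30626211-30626360 on the minus strand and Slc17a6 at chr7:51621680-51621829 on the plus strand. Capitals mark the E-box CACGTG.
Zic1: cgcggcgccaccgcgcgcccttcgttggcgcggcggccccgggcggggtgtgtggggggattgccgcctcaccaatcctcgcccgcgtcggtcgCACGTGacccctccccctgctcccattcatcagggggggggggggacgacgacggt
Prkcd: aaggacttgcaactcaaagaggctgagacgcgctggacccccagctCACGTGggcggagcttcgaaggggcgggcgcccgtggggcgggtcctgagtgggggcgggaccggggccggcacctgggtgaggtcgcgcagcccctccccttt
Slc17a6: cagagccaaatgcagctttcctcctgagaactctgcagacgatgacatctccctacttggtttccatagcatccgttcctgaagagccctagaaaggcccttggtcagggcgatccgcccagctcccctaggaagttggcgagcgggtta

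A set of 5 motifs was searched on both strands in the 14 listed promoters of the 8 genes, each from 250 bases before to 50 after a start site. The E-box CACGTG was present in 4 of these 14 promoters, from 4 members (Zic1, Prkcd, Gbx2 and Lef1), and in 7.15% of all 32851 promoters. The TCF/LEF motif CTTTGAT occurred in 3.73% of all promoters and in none of the members' promoters. The ROR motif AGGTCA, with 16.3% of all promoters, was also in none. The homeodomain motif TAATTA (5.29% of all promoters) was in 1 promoter of Slc17a6, and the ZIC motif CAGCAGG (10.5%) in 2 promoters of Lef1. No motif contains another, and a match describes these letters only.

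Per length, in the deposited FPKM values, Prkcd was the most abundant member with a median of 18.96 FPKM over the 9 libraries (range 2.72 to 35.8). Zic1 followed at 10.8 FPKM, with a wider range of 1.97 to 61.2. Slc17a6 (3.49, range 2.78 to 10.3) and Rora (3.14, range 2.52 to 4.03) came next, and their ranges overlapped. Ramp3 stood at 2.13 FPKM (1.71 to 5.73), Tcf7l2 at 0.779 (0.618 to 1.61) and Lef1 at 0.628 (0.525 to 0.839). Gbx2, at 0.0319 FPKM, had between 0 and 6 counts in each library. The ranges of neighbours in this order overlapped, except that Ramp3 lay above Tcf7l2 and Gbx2 below every other member.

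Zic1, a zinc finger transcription factor, varied most. Its level was 30.6, 21.3 and 14.9 CPM in MRL/mpj replicates 1, 2 and 3. It was 206, 62.4 and 349 CPM in the MRL/lpr libraries and 11.1, 155 and 253 CPM in the MRL/lpr+MSC libraries. All 3 MRL/lpr libraries thus lay above all 3 MRL/mpj libraries, while MRL/lpr+MSC replicate 1 lay below every MRL/mpj library. The mean of Zic1 was 206 ± 143 CPM (SD, n = 3) for MRL/lpr and 22.2 ± 7.86 CPM (SD, n = 3) for MRL/mpj. Its log2 fold change was 2.94 (SE 0.728, adjusted p = 0.0551, limma voom with Benjamini-Hochberg adjustment over all genes tested). It did not pass the threshold used, an adjusted p under 0.05 with at least a 1.5-fold change.

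Zic1 spans chr9:91358058-91365810 on the minus strand, and its annotated range overlaps that of Zic4 on the plus strand at chr9:91362413-91365810. The 2 genes share 60 exonic bases. No source used here says if strand entered the counting, and without it reads in shared exon bases cannot be told apart.

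Prkcd encodes protein kinase C delta (chr14:30595354-30626210). It was counted at 94.5, 61.1 and 92.5 CPM in MRL/mpj, at 142, 88.7 and 179 CPM in MRL/lpr and at 13.4, 105 and 162 CPM in MRL/lpr+MSC replicates 1, 2 and 3. MRL/lpr replicate 2 fell within the MRL/mpj range, and MRL/lpr+MSC replicate 1 was far below it. The log2 fold change of MRL/lpr against MRL/mpj was 0.70 (SE 0.289, adjusted p = 0.163, limma voom).

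Slc17a6 (chr7:51622006-51671119) stood at 15.0, 18.9 and 16.5 CPM in MRL/mpj, 43.5, 16.0 and 55.0 CPM in MRL/lpr and 16.3, 41.8 and 55.4 CPM in MRL/lpr+MSC replicates 1, 2 and 3. In both MRL/lpr groups, 1 library remained at the MRL/mpj level and the others were higher. Its log2 fold change was 1.02 against MRL/mpj in MRL/lpr mice (SE 0.511, adjusted p = 0.229, limma voom) and 1.03 in MRL/lpr+MSC mice (SE 0.482, adjusted p = 0.265).

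The 4 libraries with the most Zic1, MRL/lpr replicates 1 and 3 and MRL/lpr+MSC replicates 2 and 3, also had the most Prkcd and the most Slc17a6. Zic1 ranged from 155 to 349 CPM in these 4 libraries and from 11.1 to 62.4 CPM in the other 5. The same 4 libraries had the 4 lowest sums of the hippocampal neuron markers, 1320 to 2171 CPM, against 2546 to 3262 CPM in the others. Slc17a7 was the largest gene in every sum (493 to 1802 CPM), and the markers did not share one order. Slc17a7, C1ql2, Tdo2, Neurod6, Iyd and Cpne4 were lowest in MRL/lpr replicate 3. Wfs1, Fibcd1 and Mpped1 were lowest in MRL/lpr replicate 2, Prox1 and Dsp in MRL/lpr+MSC replicate 1, and Bok in MRL/mpj replicate 2. In bulk RNA, fewer cells of a type and less RNA per cell cannot be told apart, and the part of tissue composition in these levels was not tested.

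**Figure D1:**
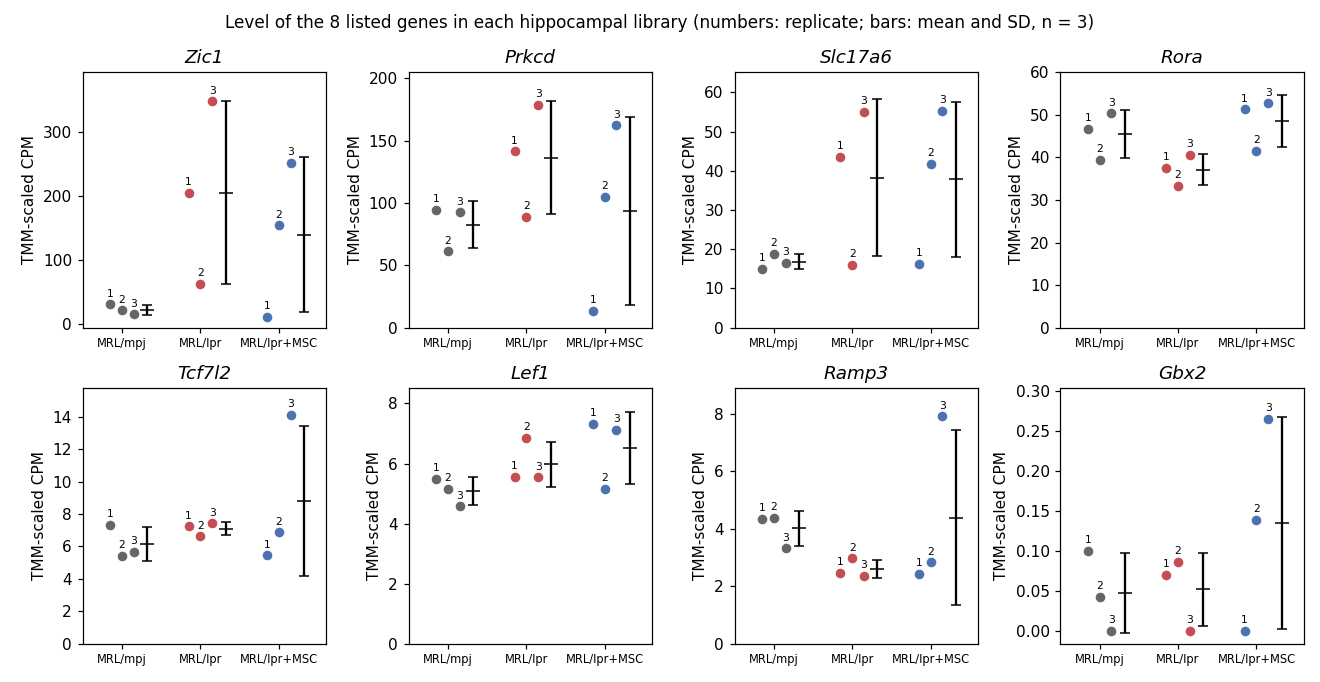
TMM-scaled CPM (y axis) of the 8 genes in each library, with the 3 groups on the x axis, with replicate numbers beside the points and bars for the mean and SD (n = 3). Zic1, Prkcd and Slc17a6 were highest in MRL/lpr replicates 1 and 3 and MRL/lpr+MSC replicates 2 and 3, while Tcf7l2 and Ramp3 were high in MRL/lpr+MSC replicate 3 alone.

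Tcf7l2, the member most often used to delimit the thalamus (chr19:55741820-55933654), followed a partly different order. It was at 7.34, 5.42 and 5.66 CPM in MRL/mpj and at 7.23, 6.63 and 7.44 CPM in MRL/lpr replicates 1, 2 and 3. In MRL/lpr+MSC mice it stood at 5.45 and 6.87 CPM in replicates 1 and 2 and at 14.1 CPM in replicate 3. The groups overlapped, and the log2 fold change of MRL/lpr against MRL/mpj was 0.23 (95% confidence interval -0.14 to 0.61, adjusted p = 0.363, limma voom).

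Lef1 (chr3:131110471-131224356), the second TCF/LEF gene, stayed between 4.57 and 7.31 CPM in all 9 libraries. The 3 MRL/lpr libraries (5.53 to 6.85 CPM) lay just above the 3 MRL/mpj libraries (4.57 to 5.49 CPM), with a log2 fold change of 0.23 (SE 0.160, adjusted p = 0.380, limma voom). Gbx2 (chr1:89927956-89931179) was listed at 0 in 3 libraries, 1 of each group, and reached at most 6 counts, in MRL/lpr+MSC replicate 3. It was too low to be tested, and at this depth no difference in Gbx2 was detectable.

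Rora, a nuclear receptor (chr9:68653786-69388246), was at 46.7, 39.5 and 50.3 CPM in MRL/mpj, 37.6, 33.3 and 40.6 CPM in MRL/lpr and 51.3, 41.5 and 52.7 CPM in MRL/lpr+MSC replicates 1, 2 and 3. The 3 MRL/lpr+MSC libraries lay above the 3 MRL/lpr libraries, with a log2 difference of 0.38 (SE 0.127, adjusted p = 0.921, limma voom). MRL/lpr and MRL/mpj overlapped, and MRL/lpr had the lower mean (log2 fold change -0.28, adjusted p = 0.165).

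Ramp3 encodes a receptor activity-modifying protein that partners calcitonin-family receptors (chr11:6658521-6677475). It was at 4.34, 4.38 and 3.32 CPM in MRL/mpj and at 2.48, 2.97 and 2.37 CPM in MRL/lpr replicates 1, 2 and 3, so that the groups did not overlap. In MRL/lpr+MSC mice it was at 2.44 and 2.83 CPM in replicates 1 and 2 and at 7.91 CPM in replicate 3. The log2 fold change of MRL/lpr against MRL/mpj was -0.63 (SE 0.198, adjusted p = 0.0891, limma voom), the opposite sign to Zic1, Prkcd and Slc17a6.

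Of the 8 members, 7 were tested in each comparison and 0 were called by limma voom. For MRL/lpr against MRL/mpj, 5.79% of all 16697 genes tested were called, and 3 members (Zic1, Prkcd and Ramp3) had an unadjusted p under 0.05. Zic1 and Lef1 were higher without overlap and Ramp3 lower, where 19.4% of all genes were higher and 18.6% lower without overlap. For MRL/lpr+MSC against MRL/mpj, 3.43% of genes were called, 0 members had an unadjusted p under 0.05, and 0 members were without overlap (15.2% of genes higher, 14.4% lower). For MRL/lpr+MSC against MRL/lpr, 0.0% of genes were called, Rora alone had an unadjusted p under 0.05, and Rora alone was without overlap (4.27% of genes higher, 5.71% lower). With library quality weights in limma, 1 member was called for MRL/lpr against MRL/mpj (Zic1, log2 fold change 3.05, adjusted p = 0.0102), 1 for MRL/lpr+MSC against MRL/mpj (Slc17a6, 1.37, adjusted p = 0.0498) and 0 between the MRL/lpr groups.

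The median log2 fold change of the tested members was 0.23 in MRL/lpr and 0.35 in MRL/lpr+MSC against MRL/mpj, where the medians of all genes tested were 0.02 and 0.01. Of the 7 members, 5 had a positive sign in each. These comparisons share the MRL/mpj libraries. Between the MRL/lpr groups, Zic1 was lower by a log2 difference of -1.11 in MRL/lpr+MSC (95% confidence interval -4.21 to 1.99) and Prkcd by -1.08 (-3.31 to 1.16), intervals that hold changes in either direction.

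**Figure D2:**
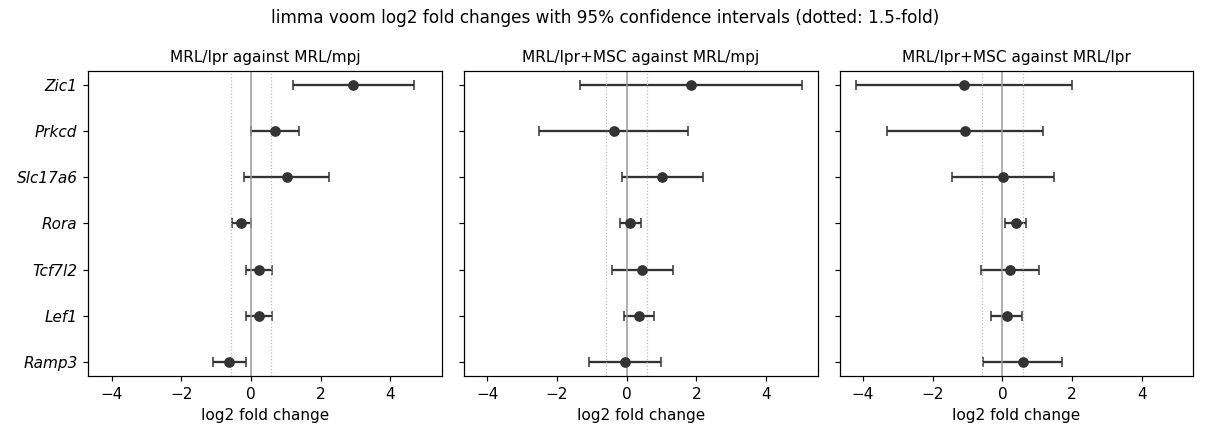
Log2 fold changes (x axis) of the 7 tested genes (y axis) in the 3 comparisons, with points for the limma voom estimate, bars for the 95% confidence interval and dotted lines at 1.5-fold. The interval of Zic1 reached from 1.19 to 4.69 for MRL/lpr against MRL/mpj and from -1.35 to 5.03 for MRL/lpr+MSC against MRL/mpj.

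Leaving out single libraries brought members over the calling threshold, as did library quality weights and a replicate block with all libraries kept. MRL/lpr replicate 2 and MRL/lpr+MSC replicate 1 had the lowest Zic1, Prkcd and Slc17a6 of their groups. Leaving them out was bound to raise the fold changes of these genes over MRL/mpj, so the calls below are not independent evidence of a difference. Without MRL/lpr replicate 2, Zic1 (log2 fold change 3.64, adjusted p = 0.00446), Slc17a6 (1.54, adjusted p = 0.00446) and Prkcd (0.98, adjusted p = 0.0291) were called by limma voom for MRL/lpr against MRL/mpj. Without MRL/lpr+MSC replicate 1, Zic1 (3.21, adjusted p = 0.0111) and Slc17a6 (1.52, adjusted p = 0.00296) were called for MRL/lpr+MSC against MRL/mpj. Leaving out that library also turned the sign of Prkcd in that comparison from -0.38 to 0.70, and that of Zic1 between the MRL/lpr groups from -1.11 to 0.26. Leaving out MRL/lpr+MSC replicate 3, the library with the most Tcf7l2, turned the Tcf7l2 difference between the MRL/lpr groups from 0.22 to -0.20.

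Within groups, Zic1, Prkcd and Slc17a6 spread more than most genes. The SD of log2 CPM within groups, pooled over the 3 groups, was 1.605 for Zic1, 1.163 for Prkcd and 0.766 for Slc17a6, against a median of 0.195 over 17113 genes. That of Zic1 exceeded the SD of 98.9% of genes, and that of Prkcd 97.8%. Lef1 (0.203) and Rora (0.172) were close to the median gene. With group means removed, Zic1 correlated with Prkcd at r = 0.945 and with Slc17a6 at r = 0.914 over the 9 libraries, which share tissue and depth. Tcf7l2 correlated best with Ramp3 (r = 0.901), and also with Prkcd (r = 0.781), Zic1 (r = 0.744) and Slc17a6 (r = 0.589). Lef1 correlated with Zic1 at r = -0.443.

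Zic2, Zic4 and Zic5, which encode related zinc finger factors, were high in the same libraries as Zic1. Zic2 was at 19.3, 16.7 and 11.4 CPM in MRL/mpj, 77.9, 29.8 and 109 CPM in MRL/lpr and 13.5, 58.4 and 76.1 CPM in MRL/lpr+MSC replicates 1, 2 and 3. All 3 shared the 4 highest libraries with Zic1. Their log2 fold changes for MRL/lpr against MRL/mpj were 2.03 to 2.79 with adjusted p from 0.0782 to 0.119 by limma voom, so none was called. Of the other TCF/LEF genes, Tcf7 gave 0.97 (adjusted p = 0.0652, limma voom) and Tcf7l1 0.66 (adjusted p = 0.119). Of 20 Wnt pathway genes, 1 was called higher for MRL/lpr against MRL/mpj, the Wnt target Axin2 (0.69, adjusted p = 0.0380), and 0 for MRL/lpr+MSC against MRL/mpj. The single call among 20 genes is close to the 5.79% called among all genes.

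Relatives of the members that were called for MRL/lpr against MRL/mpj included Calcrl, a receptor that pairs with RAMP proteins, which rose (log2 fold change 0.67, adjusted p = 0.0446, limma voom). The protein kinase C gene Prkcb fell (-0.69, adjusted p = 0.0187), with the sign opposite to that of Prkcd. For MRL/lpr against MRL/mpj, 2 of 21 relatives tested were called higher and 2 lower, where 5.79% of all genes were called. For MRL/lpr+MSC against MRL/mpj, 0 of 21 relatives tested were called (3.43% of all genes). Slc17a7, the hippocampal counterpart of Slc17a6, was at 1429 to 1766 CPM in MRL/mpj and at 920, 1339 and 493 CPM in MRL/lpr replicates 1, 2 and 3 (-0.89, adjusted p = 0.142).

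**Figure D3:**
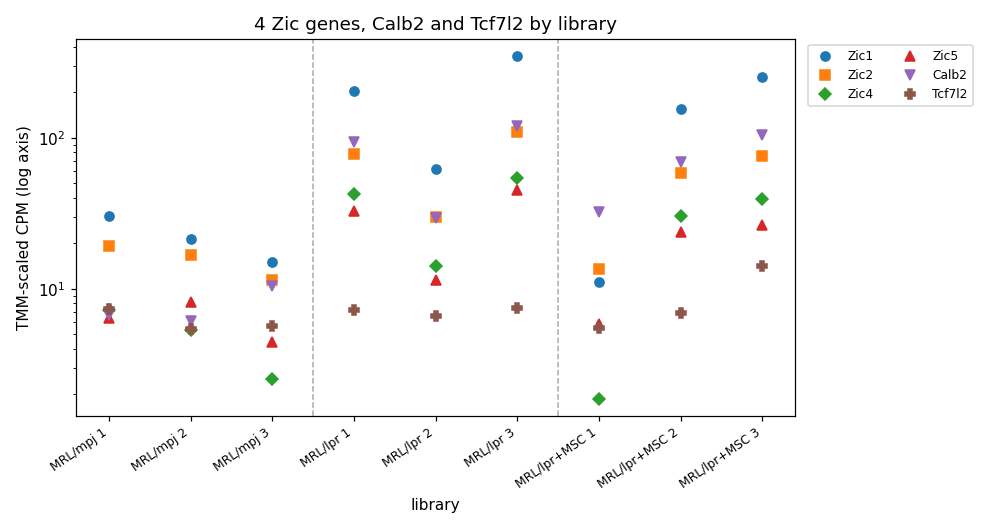
TMM-scaled CPM on a log axis (y axis) of Zic1, Zic2, Zic4, Zic5, Calb2 and Tcf7l2 in each of the 9 libraries (x axis), with dashed lines between the groups. The Zic genes and Calb2 were highest in MRL/lpr replicates 1 and 3 and MRL/lpr+MSC replicates 2 and 3, while Tcf7l2 stayed between 5.42 and 7.44 CPM except in MRL/lpr+MSC replicate 3.

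Among 18 other genes known from thalamic neurons, 17 were tested and 2 were called higher for MRL/lpr against MRL/mpj, Patj (1.79, adjusted p = 0.0154, limma voom) and Amotl1 (1.03, adjusted p = 0.0192). For MRL/lpr+MSC against MRL/mpj, 2 were called higher, Calb2, which encodes the calcium-binding protein calretinin (3.06, adjusted p = 0.0472), and the T-type calcium channel gene Cacna1g (1.13, adjusted p = 0.00783). No gene of the list was called lower, and the medians were 0.88 in both comparisons. Of all genes tested, 5.79% were called for MRL/lpr and 3.43% for MRL/lpr+MSC against MRL/mpj. Without overlap, 9 of the 17 genes were higher and 2 lower for MRL/lpr against MRL/mpj (19.4% and 18.6% of all genes). For MRL/lpr+MSC against MRL/mpj, 6 were higher and 0 lower without overlap (15.2% and 14.4% of all genes). The list was chosen with earlier results of these data known. Shox2, a thalamic homeobox gene, was at 0.0349 to 0.474 CPM in 8 libraries and at 4.38 CPM in MRL/lpr+MSC replicate 3.

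The 8 genes did not follow one order across libraries. Tcf7l2 was low, and Gbx2, a factor of the developing thalamus, was near 0. In MRL/lpr replicate 3, the library with the most Zic1, Gbx2 was listed at 0 and Shox2 was at 0.0845 CPM. Tcf7l2 was at 7.44 CPM there, close to the 7.34 CPM of MRL/mpj replicate 1. Of the other thalamic list, Plcb4 (84.5 CPM), Calb2 (120 CPM), Cacna1g (110 CPM) and Foxp2 (14.3 CPM) were at their highest in this library. Further genes of that list, among them Ntng1 and Patj, were highest in MRL/lpr+MSC replicate 3. MRL/lpr+MSC replicate 3 was the library in which Tcf7l2, Ramp3, Shox2, Slc17a6 and Rora were all at their highest.

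Markers of other regions and cell types were read in the same libraries, and their part in the levels of the 8 genes was not tested. The summed level of 13 septal genes, listed after values had been seen, was 86.0 to 94.9 CPM in MRL/mpj, 136 to 409 CPM in MRL/lpr and 67.3 to 308 CPM in MRL/lpr+MSC mice. Lhx8, a factor of septal cholinergic neurons, was at 9.42 CPM in MRL/lpr replicate 3 and 9.77 CPM in MRL/lpr+MSC replicate 3, and at most at 0.489 CPM elsewhere. Slc5a7 of the same list was at 15.4 and 14.9 CPM in these libraries, and also at 10.7 CPM in MRL/lpr replicate 2. Chat (2.41 CPM) and Slc18a3 (3.06 CPM) were likewise detected in MRL/lpr replicate 2, where Zic1 was lower. Zic2, Zic4 and Zic5 are among the 13 septal genes. Of the 12 hippocampal neuron markers, 2 were called lower for MRL/lpr against MRL/mpj, Fibcd1 (-1.11, adjusted p = 0.0037, limma voom) and Mpped1 (-1.27, adjusted p = 0.0182). Fibcd1 alone was called for MRL/lpr+MSC against MRL/mpj (-0.79, adjusted p = 0.00876, limma voom). Of all genes tested, 5.79% and 3.43% were called in these comparisons. The 9 habenular genes summed to 39.5 to 54.5 CPM over all libraries, and 12 striatal genes to 193 to 364 CPM.

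Choroid plexus genes followed another order, and 0 of 10 were called in any comparison. Their sum over 10 genes was highest in MRL/lpr replicate 2 (9911 CPM) and MRL/lpr+MSC replicate 2 (4989 CPM) and was 116 CPM in MRL/lpr replicate 3, where Zic1 was highest. The 10 meningeal fibroblast genes reached 804 CPM in MRL/lpr replicate 2, where Zic1 was lowest among the MRL/lpr libraries. Sums for oligodendrocytes, astrocytes, endothelium and Cajal-Retzius cells varied by at most 1.94-fold within a group. The sum for Cajal-Retzius cells, an early-born neuron type of the hippocampus, rested mainly on Reln and Ndnf. Its homeobox genes Lhx1 and Lhx5 were low but had the same 4 highest libraries as Zic1, with Lhx1 at 2.32 to 3.60 CPM in these and at most 1.21 CPM elsewhere. Trp73 of the same list did not share this order. It was highest in MRL/lpr replicate 2 (14.2 CPM) and at 5.07 CPM in MRL/lpr replicate 3. Of the 10 endothelial genes, the tight junction gene Cldn5 alone was called higher for MRL/lpr (log2 fold change 0.73, adjusted p = 0.0083, limma voom) and for MRL/lpr+MSC (0.87, adjusted p = 0.0118) against MRL/mpj. Of all genes tested, 5.79% and 3.43% were called there.

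**Figure D4:**
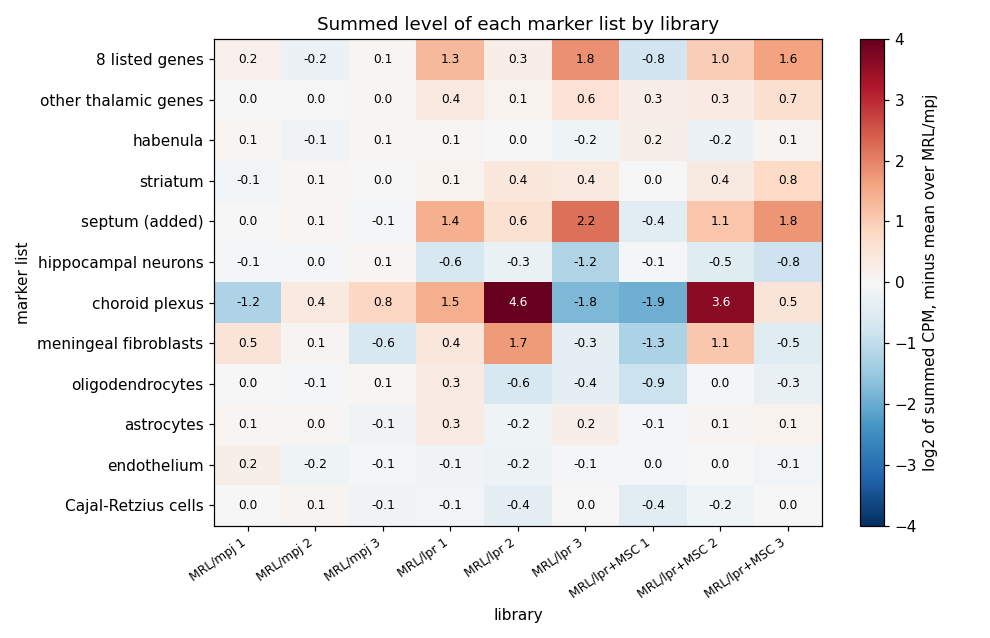
Log2 of the summed CPM of each marker list (y axis) in each library (x axis), relative to the mean of the MRL/mpj libraries, with red for higher and blue for lower values. The sums of the 8 listed genes and of the septal list were high in MRL/lpr replicates 1 and 3 and MRL/lpr+MSC replicates 2 and 3. The choroid plexus sum was highest in MRL/lpr replicate 2. Zic1 and Prkcd led the sum of the 8 genes (349 and 179 of 639 CPM in MRL/lpr replicate 3), while Ramp3 was at its lowest there. The septal sum includes Zic2, Zic4 and Zic5 (109, 54.1 and 44.9 of 409 CPM in that library).

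The genes whose pattern was most like the mean of the 7 tested members, each standardised over the 9 libraries, were Lgals8 (r = 0.959), Opn3 (r = 0.958), Hist3h2ba, Acy1, Chpt1, Pxk, Rida, Myh6, Pisd and Ggt1 (r = 0.915). The members' mean was led by MRL/lpr+MSC replicate 3, at 1.46 SD above the average of all libraries, with MRL/lpr replicate 3 next at 0.296. Lgals8, a galectin gene, was at 40.9 CPM in that library and at 29.6 to 36.1 CPM in the others. With group means removed, 4 of these 10 genes were again among the 10 most alike.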

How the data were processed

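Hippocampal RNA of 9 mice was sequenced with a poly-A kit, 1 library per mouse. According to the study's methods, the authors aligned reads with STAR to mm10 and counted them per gene with HTSeq, while GEO's processing notes name TopHat2 and GRCm38. The deposited matrix holds raw counts, without normalization. The deposited FPKM values divide each count by gene length and library size, and each table followed its own library over 12235 genes. The number of value columns that matched no sample was 0.

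Gene symbols and positions came from GENCODE for GRCm38. The members and all lists were chosen with earlier results of these data known. Counts were scaled by TMM. Genes were tested with a CPM equivalent to 10 counts in at least 3 libraries and a total of at least 15. Each comparison was fitted on its own 6 libraries with limma voom (R 4.3.3, limma 3.58.1, statmod 1.5.0) and robust moderation of the variances. Benjamini-Hochberg adjustment covered all genes tested. A gene was called at an adjusted p under 0.05 and at least 1.5-fold, the study's own cutoffs. The quasi-likelihood count test planned as the main test was not run, because the unit of the matrix could not be registered as counts, and limma voom took its place as planned. Tested on simulated data for MRL/lpr against MRL/mpj over 16511 genes, the test recovered 101 of 102 genes changed 2-fold and called 14 unchanged genes. Recovery was not tested separately at the within-group SD of log2 CPM of Zic1 (1.605), Prkcd (1.163) or Slc17a6 (0.766). The recovery given is therefore no measure of power for those members.

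Genes named are the 8 members, called or defining genes of the lists, relatives of the members, and the 10 protein-coding genes with the highest Pearson r to the members' mean standardised log2 CPM (prior count 2). A few single genes are not reported here. The septal list and single genes from it were chosen after values were seen. Alternatives were other scalings and filters, a joint fit of all 9 libraries, a replicate block, each library left out in turn and, added after the data were seen, library quality weights.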

Additional observations from a re-analysis of the deposited data

How the results depend on the processing

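Over 273 alternative values of the members' log2 fold changes, 247 kept direction and side of the threshold, 9 passed the threshold, and 17 changed sign, none of the latter past the threshold. Leaving out 1 library gave 165 to 1695 called genes for MRL/lpr against MRL/mpj and 193 to 1514 for MRL/lpr+MSC against MRL/mpj, with 0 to 3 and 0 to 2 members called. With library quality weights, 2065 and 1177 genes and 1 and 1 members were called. The replicate numbers did not pair the libraries (correlation of deviations -0.214 to 0.348 for the same number), and with the replicate block 1333 and 280 genes and 2 and 0 members were called, the 2 being Zic1 (adjusted p = 0.0333, limma voom) and Prkcd (adjusted p = 0.0240). Between the MRL/lpr groups 0 genes were called in every alternative run.

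Signs changed for Ramp3 in MRL/lpr+MSC against MRL/mpj (0.012 with library totals, 0.073 with the replicate block, 0.194 with quality weights, -0.616 to 0.254 on leaving out 1 library), Prkcd there (0.284 with quality weights, -1.08 to 0.697) and Rora there (-0.029 to 0.194). Between the MRL/lpr groups they changed for Slc17a6 (-0.057 with library totals, -0.014 with the block, -0.52 to 0.498), Zic1 (-1.937 to 0.259) and Tcf7l2 (-0.199 to 0.475). With group means removed, 4 of the 10 most alike genes were shared. The causes were not tested. For MRL/lpr against MRL/mpj, the ratio of group means had the same direction in FPKM and CPM for all 7 members. The other comparisons were not checked in FPKM. DESeq2 was not run, since the matrix could not be registered as counts. With 3 libraries a group and large spread, intervals are wide.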
